A study of Mus musculus with 18 samples.

Results

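The complement component genes described here are C1qa, C1qb, C1qc, C1ra, C1s1, C2, C3, C4b and Cfb, chosen by name. All 9 were present among the 27743 genes of the table, and all 9 passed the filter on low values that kept 13078 genes. RNA came from mouse skin flaps taken 7 days after a printed mesh spacer had been laid beneath them. The spacers were made by near-field electrostatic printing and varied in diameter and spacing, and the stated purpose of the series is to learn how topology acts on differentiation within the tissue. There were 6 groups of 3 libraries. Control flaps were modelled but given no treatment afterwards, and the 5 spacer groups carry the labels D15L100, D15L150, D15L200, D100L150 and D150L150. The labels give no unit or meaning for D and L, no strain, sex or age, and leave unsaid whether each library was a different animal.

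Complement is a cascade of plasma and tissue proteins that tags microbes, immune complexes and dying cells. In the classical pathway C1q, built from A, B and C chains, binds a target and activates the proteases C1r and C1s. C1s cleaves C4 and C2, whose fragments form a convertase that cleaves C3, the hub of all pathways, and factor B (Cfb) forms the convertase of the alternative pathway. Tissue macrophages and dendritic cells are the main makers of C1q, whereas C1r, C1s, C4, C2, C3 and factor B come from the liver for the circulation and also from fibroblasts, epithelia and myeloid cells in tissues.

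The members lie in clusters. On mouse chromosome 4 (build GRCm38, positions of RefSeq genes) C1qb at 136880126-136886200, C1qc at 136889801-136892936 and C1qa at 136895916-136898844 stand side by side on the minus strand. On chromosome 6, C1ra at 124512621-124523440 on the plus strand faces C1s1 at 124530344-124542392 on the minus strand. On chromosome 17, all on the minus strand, Cfb at 34856374-34862514 lies next to C2 at 34862602-34882100, C4b is at 34728139-34743902 and C3 at 57203967-57228136. C2 and Cfb are 85 bases apart in the GENCODE annotation. C4b has a near-identical neighbour in C4a and C1ra a close copy in C1rb, so that the share of reads each received is uncertain, and whether reads were counted by strand is not given in the sources used here.

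Because the C1q chains varied together and C3 was among the most variable members (below), the 250 bases before the start of C1qb, C1qc and C3 are printed 5′ to 3′ on the gene's strand, from the RefSeq promoter table for GRCm38.p6. That table matched 5 of the 9 members: C1qb, C1qc, C1ra, C1s1 and C3. Capitals mark every match to the motifs searched. C1qb is chr4:136886201-136886450, C1qc is chr4:136892915-136893164 and C3 is chr17:57228137-57228386, all on the minus strand. The C1qc window precedes a start that lies inside the gene span given above, which ends at 136892936 (136893065 in GENCODE). Its 3′ end thus overlaps that span, and distances for C1qc count from that inner start.
C1qb: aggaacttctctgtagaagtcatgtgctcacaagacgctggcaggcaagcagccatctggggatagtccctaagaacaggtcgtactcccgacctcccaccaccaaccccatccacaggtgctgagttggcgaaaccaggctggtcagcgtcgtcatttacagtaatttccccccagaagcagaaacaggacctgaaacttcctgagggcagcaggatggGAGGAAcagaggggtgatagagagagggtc
C1qc: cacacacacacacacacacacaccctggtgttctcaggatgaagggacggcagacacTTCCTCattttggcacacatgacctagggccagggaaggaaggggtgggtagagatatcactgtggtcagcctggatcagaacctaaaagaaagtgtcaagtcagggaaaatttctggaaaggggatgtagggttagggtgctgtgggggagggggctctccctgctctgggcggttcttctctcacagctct
C3: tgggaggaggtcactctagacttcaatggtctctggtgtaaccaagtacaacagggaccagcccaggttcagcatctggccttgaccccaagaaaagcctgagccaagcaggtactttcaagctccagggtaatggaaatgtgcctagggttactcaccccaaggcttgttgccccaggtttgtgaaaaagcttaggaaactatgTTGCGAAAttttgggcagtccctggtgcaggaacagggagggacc
The motifs, searched on both strands, were GAGGAA (the core bound by PU.1 and other ETS factors), TTGCGNAA (C/EBP), TTCNNNGAA (STAT), and the box of general promoters, TATAAA. The fifth was the element of the IRF family, a pair of GAAA units with 2 free bases between them. GAGGAA stood 30 to 25 bases before the start of C1qb, and its reverse complement stood 193 to 188 bases before that of C1qc. TTGCGAAA stood 45 to 38 bases before the start of C3. None of the 5 motifs was in the windows of C1ra and C1s1. Of 32851 promoter windows of this length, 23.3% held GAGGAA, 0.670% TTGCGNAA, 7.02% TTCNNNGAA, 2.98% the IRF element and 12.4% TATAAA.

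Levels are FPKM, fragments per kilobase of a gene relative to all fragments of the library, so genes can be compared per length. Libraries held 28422344 to 35327357 fragments as recovered from the steps in the FPKM values, and 11778 to 12488 genes had at least 1 FPKM. All 10 keratinocyte markers were measured, with a summed level of 1735 to 13446 FPKM in this tissue labelled skin, and 12 skeletal muscle markers summed to 2037 to 18727 FPKM. Control library 1 and D100L150 library 1 stood apart for the complement genes: Control 1 was among the 2 lowest of 18 libraries for 9 of 9 members and D100L150 1 for 8 of 9. Differences of the members that involve either are given with and without it. Differences are between group means of log2(FPKM + 1), with the standard error (SE) of a limma fit over all 13078 genes, and a gene was called where its adjusted p was under 0.05.

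The C1q chains were among the most abundant transcripts of the flap, and all 9 members varied 3.98-fold to 16.5-fold between libraries, mostly within groups rather than between them. No member was called in any of the 12 comparisons or in either of the 2 F tests over series of spacers. The highest group mean was that of D15L150 for 9 of 9 members, and the lowest that of D100L150 for 8 of 9 (C3 was lowest in D150L150). Control 1 and D100L150 1 were low for all parts of the cascade, each among the 4 lowest libraries for 9 of 9 members. D150L150 1 and D15L200 3 were each among the 4 lowest for 7, but not for C2 or Cfb. In D150L150 1, C2 was at 12.9 FPKM (median of all libraries 12.4) and Cfb at 137 (median 139). D15L200 2 was the highest library for 6 members. In these bulk samples, fewer cells of a type and less RNA per cell cannot be told apart.

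**Figure D1:**
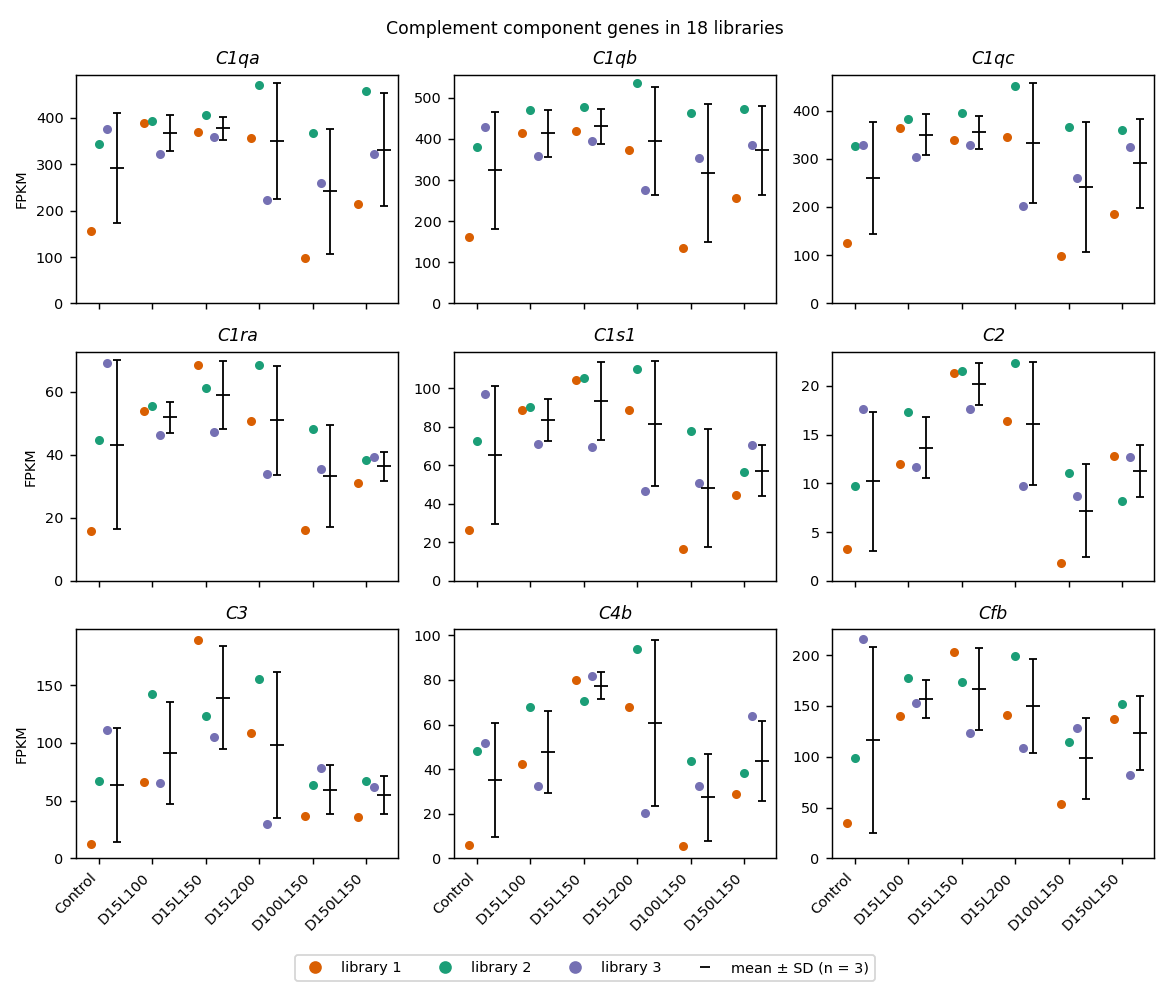
FPKM of the 9 complement genes (y axis, from 0) in the 6 groups (x axis); points are libraries, coloured by replicate number, and bars are the mean ± SD of 3 libraries. Control 1 and D100L150 1 lie at the bottom of their groups in all 9 panels, and the D15L150 mean is the highest in each.

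C1qb encodes the B chain of C1q. It stood at 162, 380.1 and 429 FPKM in Control libraries 1 to 3, 413, 471 and 357 in D15L100, 419, 478 and 394 in D15L150, 374, 536 and 275 in D15L200, 135, 463 and 353 in D100L150, and 257, 474 and 385 in D150L150. D100L150 1, Control 1, D150L150 1 and D15L200 3 were the 4 lowest libraries, and every spacer group overlapped Control. In each library C1qb ranked between the 125th and the 511th most abundant of all genes.

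C1qa and C1qc, the A and C chains, followed the same order of groups. C1qa ranged from 97.9 FPKM in D100L150 1 to 472 in D15L200 2, and C1qc from 98.4 to 450.3 in the same libraries. The group means (± SD, n = 3) of C1qa were 378 ± 25.2 in D15L150, 368 ± 39.3 in D15L100, 350.4 ± 124 in D15L200, 332 ± 122 in D150L150, 292 ± 119 in Control and 241 ± 135 in D100L150. No neighbours in this order differed beyond their spread. C1qc ran from 355 ± 34.9 in D15L150 to 241 ± 135 in D100L150, with 259.6 ± 116 in Control.

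C1ra and C1s1 encode the proteases of the C1 complex. C1s1 stood at 26.4, 72.7 and 96.8 FPKM in Control, 88.8, 90.5 and 70.9 in D15L100, 104, 106 and 69.8 in D15L150, 88.7, 109.9 and 46.4 in D15L200, 16.3, 77.9 and 50.6 in D100L150, and 44.3, 56.7 and 70.7 in D150L150. All D15L100 and D150L150 libraries lay inside the range of Control, and the other 3 spacer groups overlapped it. C1ra was lower, from 15.8 FPKM in Control 1 to 69.2 in Control 3, so that the lowest and the highest of the 18 libraries belonged to 1 group. Its group means were 58.9 ± 10.8 FPKM in D15L150, 51.9 ± 4.95 in D15L100, 51.0 ± 17.3 in D15L200, 43.2 ± 26.7 in Control, 36.3 ± 4.48 in D150L150 and 33.2 ± 16.2 in D100L150 (SD, n = 3).

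C4b and C2 supply the classical C3 convertase. C4b was the most variable member: 5.88, 48.3 and 51.6 FPKM in Control, 42.1, 68.0 and 32.6 in D15L100, 80.1, 70.6 and 81.7 in D15L150, 67.7, 94.1 and 20.4 in D15L200, 5.70, 43.7 and 32.4 in D100L150, and 28.8, 38.4 and 63.6 in D150L150. All 3 D15L150 libraries were above all libraries of Control, D15L100, D100L150 and D150L150, though not above D15L200. C2, the least abundant member, stood at 3.32, 9.73 and 17.6 FPKM in Control, 12.0, 17.3 and 11.7 in D15L100, 21.4, 21.6 and 17.7 in D15L150, 16.4, 22.3 and 9.71 in D15L200, 1.86, 11.0 and 8.68 in D100L150, and 12.9, 8.22 and 12.8 in D150L150. As for C4b, the D15L150 libraries lay above those of the same 4 groups, by a narrow margin over Control 3.

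C3, the hub of the cascade, stood at 12.5, 67.3 and 111 FPKM in Control, 66.1, 142 and 64.8 in D15L100, 189.5, 123 and 105 in D15L150, 108, 156 and 30.1 in D15L200, 36.7, 63.9 and 78.2 in D100L150, and 35.9, 67.1 and 61.8 in D150L150. The libraries of both groups with larger D numbers were below all D15L150 libraries, but within the range of Control. Cfb, factor B, stood at 34.9, 98.8 and 216 FPKM in Control, 140.1, 178 and 153 in D15L100, 203, 173 and 124 in D15L150, 141, 199.6 and 108 in D15L200, 53.0, 114 and 128 in D100L150, and 137, 152 and 82.2 in D150L150. Control held both the lowest and the highest Cfb library, and all spacer groups lay inside that range.

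The spread within groups was large against other genes. The within-group SD of log2(FPKM + 1) was 0.59 for C1qa, 0.57 for C1qb, 0.61 for C1qc and 0.59 for C1ra, against a median of 0.21 over all genes tested. It was 0.69 for C1s1, 0.70 for C2, 0.68 for Cfb, 0.93 for C3 and 1.07 for C4b. For each member at least 90.1% of tested genes had a smaller SD, and for C4b 98.2% had. The highest library exceeded the lowest 3.98-fold for C1qb and 16.5-fold for C4b. Groups accounted for 19.2% of the log2 variation of C1qb and for 45.8% of that of C2, the smallest and largest shares among the members.

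Against Control, the mean of the 5 spacer groups was higher for all 9 members, by amounts within the error. The differences were 0.20 ± 0.35 for C1qa (SE; 95% interval -0.54 to 0.95), 0.31 ± 0.34 for C1qb, 0.32 ± 0.36 for C1qc, 0.25 ± 0.35 for C1ra and 0.22 ± 0.41 for C1s1. They were 0.48 ± 0.41 for C2, 0.54 ± 0.40 for Cfb, 0.74 ± 0.55 for C3 (-0.43 to 1.91) and 0.76 ± 0.63 for C4b (-0.58 to 2.10). No member was called (adjusted p from 0.447 for C3 to 0.782 for C1s1), where 3.56% of all tested genes were, and no member had an unadjusted p under 0.05, where 22.4% did. Control and spacer libraries overlapped for all 9 members, and did not overlap for 1.51% of all genes. The median difference was 0.32 over the members and -0.04 over all genes tested. The sign rested on Control library 1: without it all 9 differences were negative, from -0.09 for C2 to -0.34 for C1ra, and 0 of all genes were called. Keratinocyte markers were higher than in Control for 10 of 10 in this comparison (median 1.51, 4 called) and endothelial markers lower for 10 of 10 (median -0.81, 0 called), and their part in the members' values was not tested.

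D15L150 gave the largest differences from Control. C3 was 1.53 ± 0.70 higher (adjusted p = 0.248), C4b 1.58 ± 0.81 (adjusted p = 0.289) and C2 1.15 ± 0.53 (adjusted p = 0.248). The C1q chains differed less, by 0.47 ± 0.45 for C1qa, 0.53 ± 0.43 for C1qb and 0.57 ± 0.47 for C1qc, with C1ra at 0.65 ± 0.45, C1s1 at 0.67 ± 0.53 and Cfb at 0.84 ± 0.51. In this comparison 0% of all genes were called. C2 and C3 had an unadjusted p under 0.05, 2 of 9 members, against 19.8% of all genes. The libraries of the groups did not overlap for C1qc, C2 and C4b, 3 of 9 members, against 26.4% of all genes. Without Control 1 the differences shrank to 0.63 for C3, 0.62 for C4b, 0.58 for C2 and 0.07 to 0.16 for the other 6 members. In this comparison keratinocyte markers were higher for 10 of 10 (median 1.38), endothelial markers lower for 10 of 10 (median -1.21) and fibroblast markers higher for 11 of 14 (median 0.60), none of them called, and their part in the members' values was not tested. Whether the C4b, C3 and C2 differences exceed those of the C1q chains was not tested.

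The other spacer groups overlapped Control for every member. In D15L100 all 9 members were higher than Control, with a median difference of 0.55 and C3 at 0.87 ± 0.70. Without Control 1, 5 were higher and 4 lower, with a median of 0.03, C3 at -0.03 and C4b at -0.13. There 0% of all genes were called, 3.3% had an unadjusted p under 0.05 and 6.07% did not overlap. In D15L200 all 9 were again higher, with a median of 0.42 and C4b at 0.99 ± 0.81. Without Control 1, 2 were higher and 7 lower, with a median of -0.08 and C4b at 0.03. The background shares were 1.56%, 17.3% and 25%. In D150L150 7 members were higher than Control, while C1ra and C1s1 were each at -0.02. Without Control 1 all 9 were lower, with a median of -0.27. The background shares were 2.42%, 20.4% and 26.4%. In D100L150 C3 and Cfb were higher and 7 members lower, with a median of -0.27. Without Control 1 all 9 were lower (median -0.77), and without D100L150 1 all 9 were higher (median 0.38). The background shares were 1.38%, 21.1% and 21.8%. In these 4 comparisons 0 of 9 members were called, had an unadjusted p under 0.05 or did not overlap. These comparisons share their Control libraries.

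**Figure D2:**
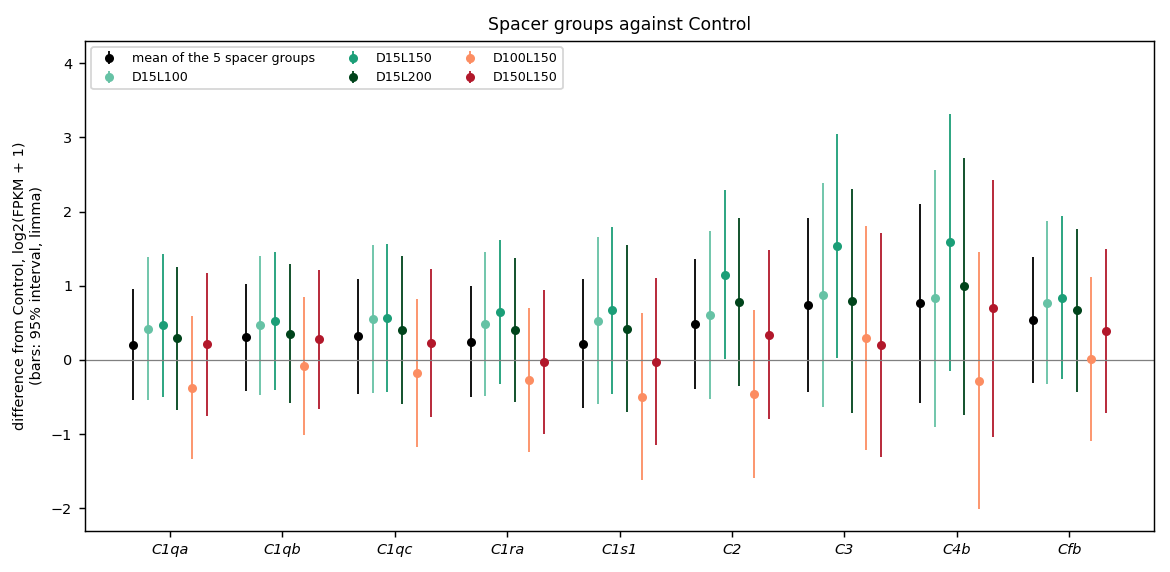
Difference from Control in log2(FPKM + 1) (y axis) for the 9 complement genes (x axis), for the mean of the 5 spacer groups and each spacer group; bars are 95% intervals of the limma fit. Only the D15L150 intervals of C2 and C3 lie just above 0, before adjustment for the number of genes.

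Among spacer groups, the series D15L150, D100L150 and D150L150 varies the D number and D15L100, D15L150 and D15L200 the L number. D100L150 was lower than D15L150 for 9 of 9 members, with C4b at -1.86 ± 0.81 (adjusted p = 0.430), C2 at -1.61 ± 0.53 (adjusted p = 0.412), C3 at -1.23 ± 0.70 and C1s1 at -1.16 ± 0.53. The C1q chains were at -0.84 ± 0.45 for C1qa, -0.61 ± 0.43 for C1qb and -0.74 ± 0.47 for C1qc. No gene of the whole table was called here (0%). Unadjusted p-values under 0.05 were found for C1s1, C2 and C4b, 3 of 9, against 11.4% of all genes, and C2, C3 and C4b did not overlap, 3 of 9, against 17.1%. Without D100L150 library 1 the differences were -1.02 for C4b, -0.97 for C2, -0.92 for C3 and -0.54 for C1s1. The C1q chains were then at -0.29 for C1qa, -0.08 for C1qb and -0.20 for C1qc. With all libraries, fibroblast markers were lower for 13 of 14 (median -0.75), adipocyte markers for 8 of 8 (-1.02) and skeletal muscle markers for 12 of 12 (-1.29). Neutrophil markers were higher for 7 of 7 (median 1.72), endothelial markers for 10 of 10 (0.60) and macrophage markers for 11 of 18 (0.34). None of these markers was called, and their part in the members' values was not tested. The smallest unadjusted p of the series' F test among the members was 0.0287 for C2 (adjusted p = 0.743), and 5.74% of all genes had one under 0.05.

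D150L150 was also lower than D15L150 for 9 of 9 members, with C3 at -1.33 ± 0.70 and with C1ra, C2, C3 and C4b not overlapping, against 12.4% of all genes. Without D150L150 1, 8 were lower and C1qa was at 0.03, with C3 at -1.06 and C1qb at -0.01. No member had an unadjusted p under 0.05 there, against 4.95% of genes. In the L series the median difference of the members was 0.14 for D15L150 against D15L100, with C4b at 0.75 ± 0.81, C3 at 0.66 ± 0.70 and C2 at 0.55 ± 0.53. It was -0.24 for D15L200 against D15L150, with C3 at -0.74 ± 0.70 and C4b at -0.59 ± 0.81. Without D15L200 3 that median was 0.05, with C3 at -0.05 and C4b at 0.05. C2 and C4b did not overlap between D15L150 and D15L100, 2 of 9 against 10.1% of genes, and no member had an unadjusted p under 0.05, against 4.72%. For D15L200, 0 of 9 members passed either mark against D15L100, where 5.18% of genes had an unadjusted p under 0.05 and 12.4% did not overlap. Against D15L150 it was also 0 of 9, with 0.734% and 5.95% of genes. D150L150 against D100L150 gave 0 of 9, with 2.2% and 5.61%. In every pair of spacer groups in this paragraph 0% of genes were called. In the F test over the L series the smallest p among the members was 0.526 for C3, and 2.89% of all genes were under 0.05. Comparisons with D15L150 share its 3 libraries.

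The 3 C1q chains kept nearly fixed proportions while their levels varied. Their ratios of FPKM were computed in each library. C1qa over C1qb was 0.726 at the lowest, 0.879 at the median and 0.970 at the highest, with a within-group SD of 0.09 on the log2 scale. C1qc over C1qb was 0.723, 0.811 and 0.921, with an SD of 0.10. C1s1 over C1ra was 1.02, 1.57 and 1.79, with the lowest value in D100L150 1. The lowest 3 ratios of C1qa to C1qb were the 3 D100L150 libraries, at 0.726, 0.792 and 0.734, below the 0.812 of D15L200 3, the next lowest. This group was singled out after its values were seen, and the difference was not tested.

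Between C1q and the later components proportions were looser. C1qb over C1s1 ran from 4.03 to 8.35 (SD 0.24), C1qb over Cfb from 1.88 to 4.68 (SD 0.43) and C1qb over C2 from 19.6 to 72.3 (SD 0.43). C1qb over C3 ran from 2.21 in D15L150 1 to 12.9 in Control 1 (SD 0.60). C1qb over C4b ran from 4.83 in D15L150 3 to 27.5 in Control 1, with 23.6 in D100L150 1 (SD 0.64). In D15L200 3 it was 13.5. In these 3 libraries C4b was lower still in proportion to C1qb, but D150L150 1, also low in C1qb, had a ratio of 8.94, near the median of 8.63. The 2 genes of the factor B and C2 neighbourhood did not keep a fixed ratio either, with Cfb over C2 at 6.45 to 28.4.

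**Figure D3:**
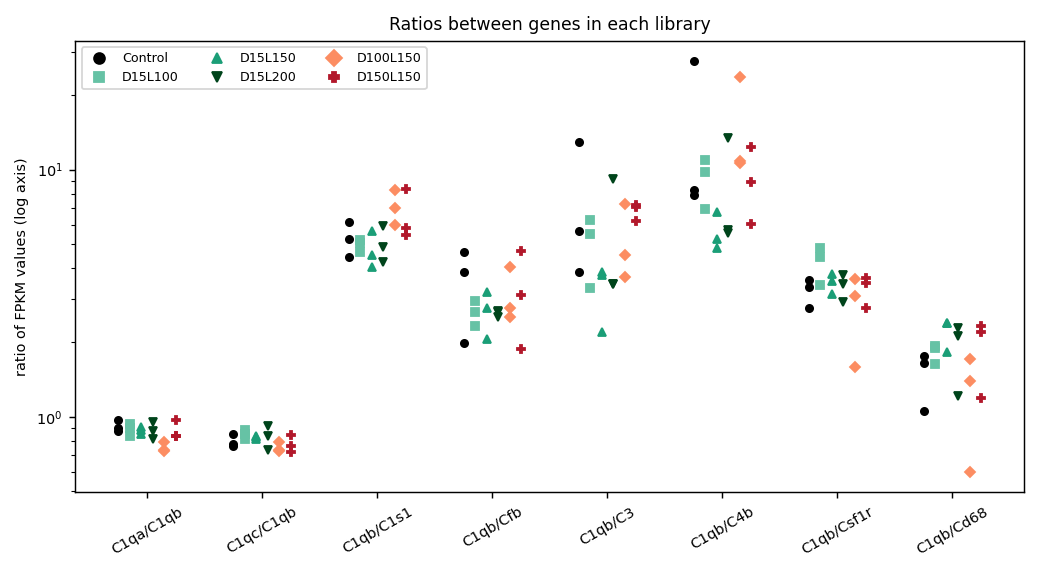
Ratios of FPKM between pairs of genes (x axis) in each of 18 libraries (y axis, log scale), with a symbol for each group. The C1q chain ratios span 0.723 to 0.970, while C1qb over C4b spans 4.83 to 27.5.

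C1q is a macrophage product, yet its levels were not proportional to a broad list of macrophage markers. Of 18 such markers, all were measured, with summed levels of 3312 to 4422 FPKM in Control, 3570 to 4756 in D15L100, 2878 to 3749 in D15L150, 3217 to 4580 in D15L200, 4165 to 5368 in D100L150 and 3259 to 5072 in D150L150. By this sum D15L150, with the highest mean of all 9 members, was lowest at both ends and D100L150 was highest, but not by the mean log2 level of the markers. That level ran from 5.95 to 6.52 in Control, 6.07 to 6.37 in D15L150, 6.40 to 6.63 in D100L150 and 6.03 to 6.67 in D150L150. C1qb over Cd68, a lysosomal protein of macrophages, was 0.600 in D100L150 1, 1.06 in Control 1 and 1.79 at the median. C1qb over Csf1r, the macrophage growth factor receptor, was 1.59 in D100L150 1 and 2.76 in Control 1 against a median of 3.47. C1qb over the marker Mrc1 was 2.63 and 4.71 in these libraries (median 5.30). Over the marker Adgre1 it was 4.33 and 9.21 (median 6.44). The within-group SD (log2) was 0.48 for the ratio to Cd68, 0.32 for Csf1r, 0.33 for Mrc1 and 0.34 for Adgre1. For the ratios to Cfb, C2, C3 and C4b it was 0.43 to 0.64.

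The deviations of each library from its group mean were set beside those of the marker lists, over 18 libraries and as a description. Pearson's r with the mean level of the macrophage list was 0.44 for C1qa, 0.47 for C1qb and 0.36 for C1qc. With the mean level of 14 fibroblast markers it was 0.93, 0.93 and 0.94. For the other members r with the fibroblast list was 0.96 for C1ra, 0.98 for C1s1, 0.92 for C2, 0.91 for C4b and 0.80 for C3. With the macrophage list it was 0.51 for C1ra, above all C1q chains, 0.37 for C1s1, 0.40 for C2, 0.28 for C4b and 0.45 for C3. For Cfb r was 0.82 with fibroblast markers and 0.71 with macrophage markers. Without Control 1 and D100L150 1, over 16 libraries, r with the fibroblast list was 0.78 for C1qa, 0.77 for C1qb, 0.79 for C1qc and 0.93 for C1s1, and r with the macrophage list was 0.33, 0.39, 0.16 and 0.16. All points share depth and composition within a library, since FPKM is a share of the library's fragments.

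Both lists were split. With single fibroblast markers r of C1qb was 0.94 for Dpt (dermatopontin) and 0.86 for Col1a2, but 0.31 for Thy1, 0.23 for Pdgfra, -0.20 for Pdgfrb and -0.23 for Lox. Among macrophage markers r of C1qb was 0.92 with Mertk, a receptor for engulfing dying cells, 0.85 with Csf1r, 0.84 with Adgre1 (F4/80), 0.81 with Mrc1 (CD206) and 0.78 with Cd163. It was -0.67 with Cd14, the endotoxin co-receptor, -0.58 with Msr1, -0.22 with Tyrobp and -0.21 with Fcgr3. This pattern was not particular to C1q. With Mertk r was 0.93 for C1ra and 0.92 for C1s1, and with Cd14 it was -0.63 and -0.73. C4b was at 0.88 with Adgre1 and C3 at 0.89 with Mrc1. Cd14 was highest in D100L150 1 at 532 FPKM, while Aif1, at 18.8, and Ms4a7, at 26.9, were lowest there. Control 1 had the lowest Adgre1 (17.5 FPKM), Csf1r (58.6), Mrc1 (34.3), Cd163 (1.56) and Mertk (2.87). Cd14, Msr1 and Fcgr3 are also made by other myeloid cells.

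The 4 libraries lowest in C1qb, picked out by that level, were high in neutrophil markers. Control 1, D100L150 1, D15L200 3 and D150L150 1 were each above both other libraries of their group for 7 of 7 tested neutrophil markers, by medians of 1.45, 1.92, 2.54 and 1.17 (log2). The summed level of these markers was 6009 FPKM in Control 1 against 1005 and 2929 in the other Control libraries, and 9699 in D100L150 1 against 2169 and 3054. In the same 4 libraries the complement members were below both group mates for 9, 9, 9 and 7 of 9. Fibroblast markers were below both for 9, 13, 11 and 4 of 14, and macrophage markers for 12, 11, 6 and 6 of 18. Of all genes tested, 42.4%, 48.2%, 33.4% and 30.6% were below both mates in these libraries, so that the fibroblast share in D150L150 1 and the macrophage shares in D15L200 3 and D150L150 1 were near that background. Endothelial markers were above both mates for 10 of 10 in Control 1, 6 in D100L150 1, 9 in D15L200 3 and 6 in D150L150 1. Of all genes tested, 40.3%, 31.1%, 45.01% and 23.1% were above both mates in these libraries, which is also the background for the neutrophil markers. Keratinocyte markers were below both for 9 of 10 in Control 1, 4 in D100L150 1, 2 in D15L200 3 and 1 in D150L150 1. Skeletal muscle markers were below both for 6, 10, 12 and 12 of 12. Summed fibroblast markers reached 4057 FPKM in Control 1, 3688 in D100L150 1, and 10194 to 13044 in D15L150. The part of these cell types in the complement levels was not tested.

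**Figure D4:**
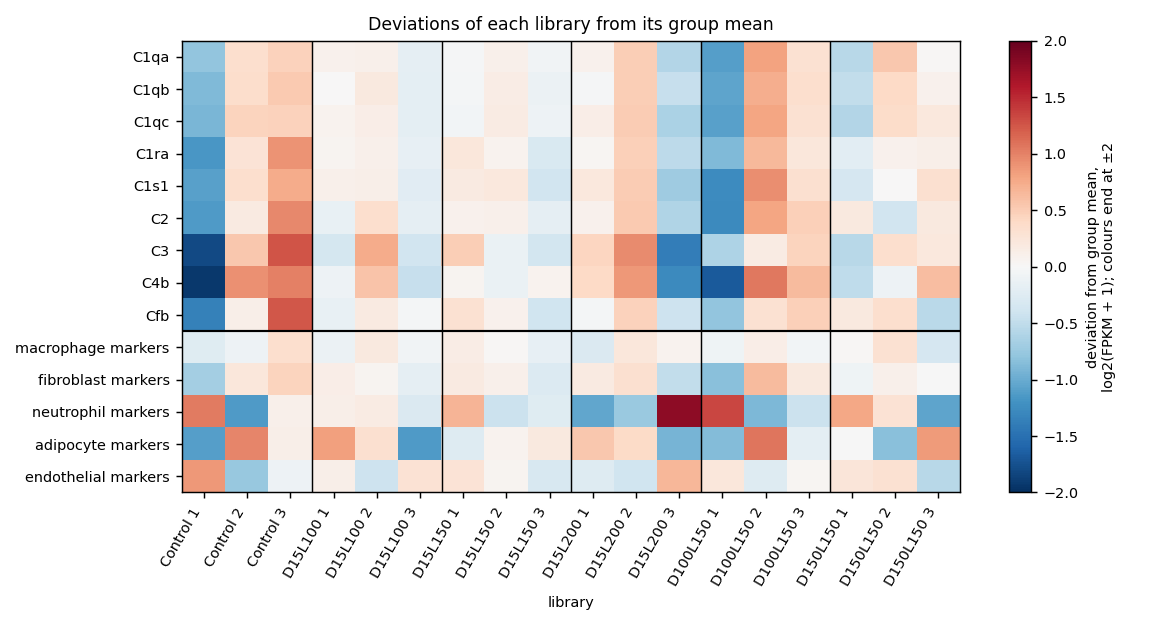
Deviation of each library (x axis) from its group mean in log2(FPKM + 1) (colour, ending at ±2) for the 9 complement genes and for the mean level of 5 marker lists. The complement rows are low in Control 1, D100L150 1 and D15L200 3, where the neutrophil row is high and the fibroblast row low.

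Hepatocytes, the source of plasma complement, left almost no trace in these flaps. Of 14 hepatocyte markers 12 were in the table and 1 passed the filter, Cyp2e1, at 0.0902 to 35.6 FPKM. Its lowest libraries were Control 1 and D100L150 1. Cyp2e1 is also made in fat. Adipocyte markers were below both mates for 7 of 8 in Control 1 and 7 of 8 in D100L150 1. The shares of all genes below both mates there were 42.4% and 48.2%. In D15L200 3 it was 8 of 8 adipocyte markers (33.4% of all genes) and in D150L150 1 0 of 8 (30.6%). Which cells made Cyp2e1 here was not tested. Albumin (Alb) stood at 0.0154 to 0.572 FPKM, Fga and Fgg were at 0 in 16 libraries each, and Serpina1a was at 0 in 13. C3, at 12.5 to 189.5 FPKM, and the other members usually counted as liver products were thus measured where defining liver transcripts were at or near 0.

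Other genes of the system were given by lists chosen by pathway, and none was called in any comparison. In the lectin pathway, which starts from sugar patterns, 3 of 9 genes passed the filter: the collectin Colec12 at 12.1 to 24.8 FPKM, the ficolin Fcna at 1.14 to 14.5 and the protease Masp1 at 1.06 to 4.13. Mbl1 and Mbl2, the mannose-binding lectins of the liver, were at 0 in 17 and 16 libraries. All 3 tested genes were higher in the mean of the spacer groups than in Control, with a median of 0.16. Without Control 1, 2 were higher and 1 lower, with a median of 0.08. In the alternative pathway properdin (Cfp), which steadies its convertase, was even across libraries at 85.8 to 164 FPKM. Factor D (Cfd), a protease made mainly by fat cells, ranged from 19.3 FPKM in D100L150 1 to 462 in D15L150 3. Neither was called (Cfd 0.32 ± 0.93 for the mean of the spacers, and -0.55 without Control 1).

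The terminal pathway, which builds the membrane pore, was thinly expressed: 2 of 7 genes were tested, C6 at 0.0353 to 3.29 FPKM and C7 at 0.116 to 19.9. Hc (C5) reached no more than 0.0779 FPKM and C9 no more than 0.282, and C8a was at 0 in 17 libraries. C7 stood at 0.166, 1.39 and 1.63 FPKM in Control and reached 19.9 in D15L150. Its libraries did not overlap between these groups, which held for 26.4% of all genes tested. This difference, 2.65 ± 0.71 (2.29 without Control 1), had the smallest adjusted p among the complement genes, 0.0870, and was not called.

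Soluble regulators hold the cascade in check. Serping1, the C1 inhibitor that blocks C1r and C1s, ranged from 64.3 FPKM in D100L150 1 to 358 in D15L150 1. The mean of the spacers differed from Control by 0.26 ± 0.35, and by -0.17 without Control 1. D100L150 against D15L150 was at -1.15 ± 0.45 (adjusted p = 0.412), and at -0.59 without D100L150 1. Clu stood at 21.4 to 89.6 FPKM and Vtn at 0.268 to 7.85, and these 3 genes were lowest in D100L150 1. Of 8 membrane regulators, which protect host cells, 3 were tested. Cr1l (Crry) was steady at 22.7 to 30.8 FPKM, Cd55 ranged from 2.28 to 21.3 and Cd59a from 2.49 to 9.13.

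Of 10 receptor genes 9 were tested. In D100L150 against D15L150 8 were higher and 1 lower, with a median of 0.47, where all 9 components were lower. The anaphylatoxin receptor C5ar1 was 1.00 ± 0.36 higher and Itgb2, the beta chain of complement receptors 3 and 4, 1.12 ± 0.40 higher in that comparison. Neither was called. Without D100L150 1 they were at 0.79 and 0.75, and 8 of 9 receptors were still higher, with a median of 0.43. A difference between receptors and components was not tested. In D100L150 library 1, among the 2 lowest for 8 of the 9 components, Itgam stood at 291 FPKM, Itgb2 at 249.8, C5ar1 at 73.5 and C3ar1 at 70.6, each the highest of 18 libraries. In the mean of the spacers against Control 6 receptors were higher and 3 lower, with a median of 0.14. Without Control 1 it was again 6 and 3, with a median of 0.04. Cd93, an endothelial and myeloid receptor once named as a C1q receptor, was 0.65 ± 0.28 lower (adjusted p = 0.194), was highest in Control 1 at 63.8 FPKM, and was at -0.35 without it.

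Genes whose library-to-library pattern was most like that of each member were ranked by Pearson's r of deviations from group means over 18 libraries, with Spearman's rho. For the C1q chains the nearest were the other chains, with r of 0.988 to 0.989. The next were Fcgrt, the neonatal Fc receptor, with r = 0.969 to C1qa (rho = 0.940) and 0.966 to C1qc (rho = 0.928), and Slc9a9 with r = 0.964 to C1qb (rho = 0.932). C1ra lay nearest to C1s1 (r = 0.969, rho = 0.932), Lbp (r = 0.961, rho = 0.895) and Col14a1 (r = 0.958, rho = 0.917). C1s1 lay nearest to Pla2g15 (r = 0.975, rho = 0.940), Calhm2 (r = 0.973, rho = 0.915) and Col14a1 (r = 0.972, rho = 0.950).

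C2 lay nearest to Serping1 (r = 0.977, rho = 0.913), the gene of the C1 inhibitor, then to Pdxk (r = 0.962) and Cd300ld4 (r = 0.948). For C3 the nearest were Tnxb, a tenascin of connective tissue (r = 0.956, rho = 0.909), Npas2 (r = 0.940) and Naaa (r = 0.938). For C4b they were Prkag2 (r = 0.977, rho = 0.977), Lbp (r = 0.962) and Calhm2 (r = 0.960). For Cfb they were Lgals3bp (r = 0.959, rho = 0.915), Trim14 (r = 0.953) and Siglec1, a lectin of macrophages (r = 0.942, rho = 0.886). Without Control 1 and D100L150 1 these values were lower, at 0.918 for Fcgrt with C1qa, 0.926 for Serping1 with C2, 0.935 for Tnxb with C3 and 0.819 for Siglec1 with Cfb.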

How the data were processed

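RNA of mouse skin flaps was measured in 18 libraries. TRIzol extraction and the VAHTS Universal V6 kit are named in the labels' protocols. The authors deposited FPKM values for 27743 genes. Per the submitters' processing notes, fastp, HISAT2, HTSeq, R 3.2.0, DESeq2 and build mm10 were used, with no role or order. Annotation and strand setting are not given there. Values of this unit are relative to each library's total, so very abundant transcripts shift all other values of a library.

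Whole fragments were recovered from the FPKM steps (relative tolerance 1e-07) for all 27743 genes, giving 28422344 to 35327357 fragments per library. In simulated data the same steps returned exact counts for 93.13% of 2939 genes, so recovered counts of single genes may be wrong. Values were taken as log2(FPKM + 1), genes reaching 1 FPKM in 3 or more libraries were kept (13078; 14665 removed), and limma 3.58.1 (R 4.3.3, trend and robust options) was fitted with 1 mean per group over all 18 libraries. Differences on this scale understate changes of low genes. P-values were adjusted by Benjamini-Hochberg within each comparison over all genes tested, and the scripts were tested on simulated data. Groups and replicate numbers came from the titles. Since separate animals are not stated, p-values reflect differences among libraries that may be technical. The labels give no batch.

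The members, gene lists and tests were chosen with earlier results of these data known. All 9 members are named, with the 3 genes of highest correlation to each, predicted genes left out. Of other complement lists, up to 4 genes by mean FPKM, up to 4 by smallest p for the mean of the spacers and any called gene were eligible, of which 1 is not reported here. Low genes of those lists, hepatocyte markers, and single macrophage markers and ratios were chosen after their values were seen. Alternatives were a pseudocount of 0.1, no filter, quantile and TPM scaling, voom on recovered fragments, the replicate block, only the groups compared, macrophage or muscle marker level as covariate, and leaving out each library. Python 3.11.15 and pandas 2.3.3 were used.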

Additional observations from a re-analysis of the deposited data

How the results depend on the processing

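The count of members called was 0 in each of 14 tests under all 28 alternative settings, 392 values in all, and the smallest adjusted p was 0.0980, for Cfb in the mean of the spacers against Control without Control library 3. Voom on recovered fragments called 0 members. In the mean of the spacers against Control 466 of all genes were called, against 365 by voom and 0 without Control 1. With the replicate block 0 members were called in every comparison, and the smallest adjusted p was 0.252. Deviations of same-numbered libraries correlated between -0.66 and 0.53, with means of -0.05, 0.04 and -0.12 for numbers 1, 2 and 3. Differently numbered libraries were not set beside them, so whether the numbers pair the libraries cannot be told from this. The sign of the mean difference between spacers and Control turned for all 9 members without Control 1. Leaving out 1 library at a time gave -0.19 to 0.44 for C1qa, -0.13 to 0.57 for C1qb, -0.14 to 0.55 for C1qc, -0.34 to 0.70 for C1ra, -0.33 to 0.59 for C1s1, -0.086 to 0.97 for C2, -0.16 to 1.37 for C3, -0.20 to 1.27 for C4b and -0.14 to 1.16 for Cfb. The highest of these were without Control 3. With both Control 1 and D100L150 1 left out, a setting chosen after seeing the data, the sign turned for 8 members: C1qa -0.084, C1qb -0.026, C1qc -0.030, C1ra -0.25, C1s1 -0.20, C3 -0.098, C4b -0.029 and Cfb -0.063, while C2 was at 0.041. The cause was not tested. With 3 libraries a group the 95% intervals were wide, for D15L100 against Control -0.47 to 1.40 for C1qb and -0.90 to 2.56 for C4b. Differences inside an interval are compatible with the data, so the lack of calls does not show a lack of difference.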
